A study of Mus musculus with 6 samples.

Results

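Prkaa2, Acaca, Acacb and Cpt1a are 4 of the 1386 genes and loci in a deposited table of intestinal epithelial transcripts, and they were taken from it by name. They mark steps on the route from the energy sensor AMPK through malonyl-CoA to fatty acid import into mitochondria. RNA-seq was done on epithelial cells from the intestine of wild-type mice on normal chow. One group was given Akkermansia muciniphila (Akk, a bacterium that lives on intestinal mucus) by daily gavage of 400000000 bacteria for 7 weeks from 8 weeks of age, and the other was given PBS. Each group had 3 libraries, numbered 1 to 3. The study asked, by its title, about lipid uptake and AMPK in the jejunum, while the labels of the libraries name only the intestinal epithelium. The sources used here give no strain or sex and do not say whether each library came from its own mouse. A p-value here thus measures spread among libraries that may be technical.

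AMPK is a kinase of 3 subunits that is switched on when cellular energy is low. Its catalytic subunit is encoded by Prkaa1 or Prkaa2. AMPK phosphorylates and inhibits the acetyl-CoA carboxylases, which make malonyl-CoA from acetyl-CoA. Acaca encodes the cytosolic carboxylase, whose product feeds fatty acid synthesis. Acacb encodes the carboxylase at the outer mitochondrial membrane, whose product inhibits carnitine palmitoyltransferase 1. Cpt1a encodes the liver form of that transferase, which commits long-chain fatty acids to oxidation and is also the form found in intestine. Inhibition of AMPK targets happens on the protein, so transcript levels measure neither AMPK activity nor malonyl-CoA.

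Every gene in the table had been selected by the authors as differing between these same 6 libraries. In the authors' deposited table the largest p-value was 0.0498 and the smallest fold was 1.5. It lists 1040 genes as lower in Akk and 346 as higher. All 4 genes were listed as lower, as was 75.0% of the table. Their direction was therefore fixed by that choice, and a second test on these libraries describes them without adding evidence. Library depth, recovered from counts and FPKM (fragments scaled to transcript length and library depth), lay between 33673354 and 41982545 fragments. PBS replicate 2 stood apart: its FPKM was the highest of the 6 for 1022 of those 1040 genes, and its Pearson correlation with the other 5 libraries over the listed genes was 0.64 to 0.82, against 0.92 to 0.98 among those 5. The differences below are therefore given with and without it.

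PBS replicate 2 was the highest library for all 4 genes, as for 74.0% of the table, so varying together was not particular to them. Their promoter windows are shown as a description. They run from 250 bases before to 50 after a RefSeq transcript start (GRCm38.p6), 5′ to 3′, and all 4 genes were matched by symbol. Capitals mark CCAAT (the NF-Y box), GGGCGG (the Sp1 GC box) and TATAAA (the TATA box) on either strand.
Prkaa2, chr4:105109849-105110148, minus strand: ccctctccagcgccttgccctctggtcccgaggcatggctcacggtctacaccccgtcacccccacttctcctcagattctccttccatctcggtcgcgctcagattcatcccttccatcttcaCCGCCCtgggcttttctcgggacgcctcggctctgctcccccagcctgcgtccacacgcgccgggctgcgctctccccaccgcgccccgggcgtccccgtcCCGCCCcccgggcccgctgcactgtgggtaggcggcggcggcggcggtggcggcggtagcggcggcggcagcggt
Acaca, chr11:84195188-84195487, plus strand: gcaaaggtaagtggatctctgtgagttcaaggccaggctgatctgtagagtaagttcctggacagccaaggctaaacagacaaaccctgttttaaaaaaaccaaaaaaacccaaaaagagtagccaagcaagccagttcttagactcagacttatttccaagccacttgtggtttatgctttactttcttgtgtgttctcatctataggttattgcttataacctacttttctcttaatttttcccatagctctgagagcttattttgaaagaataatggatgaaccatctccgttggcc
Acacb, chr5:114165268-114165567, plus strand: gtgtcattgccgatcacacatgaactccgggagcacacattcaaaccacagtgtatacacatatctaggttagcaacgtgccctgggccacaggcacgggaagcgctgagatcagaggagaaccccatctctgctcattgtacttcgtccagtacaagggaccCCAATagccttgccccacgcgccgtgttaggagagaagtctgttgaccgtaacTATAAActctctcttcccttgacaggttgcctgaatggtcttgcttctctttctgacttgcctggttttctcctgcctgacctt
Cpt1a, chr19:3323051-3323350, plus strand: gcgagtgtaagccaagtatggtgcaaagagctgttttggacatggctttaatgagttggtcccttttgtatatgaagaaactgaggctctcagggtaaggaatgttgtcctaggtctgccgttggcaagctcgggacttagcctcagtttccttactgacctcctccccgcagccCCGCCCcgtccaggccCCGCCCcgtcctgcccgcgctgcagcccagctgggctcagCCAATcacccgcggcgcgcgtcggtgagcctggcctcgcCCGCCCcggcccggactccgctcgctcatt
No motif was common to all 4 windows. CCAAT occurred once each in the Acacb and Cpt1a windows, against 37.4% of all 32851 windows of this length. GGGCGG occurred 2 times in the Prkaa2 window and 3 times in the Cpt1a window (35.7% of all windows), and TATAAA once in the Acacb window (13.6%). Both strands were searched, and no matches overlapped. The Acaca window held none of the motifs. The E-box CACGTG (7.15% of all windows), the sterol element TCACNCCAC (1.24%) and the PPAR-RXR direct repeat (0.040%) were not among the letters of any of the 4 windows. GC content was 72.7% for Prkaa2, 62.3% for Cpt1a, 51.7% for Acacb and 39.7% for Acaca, against a median of 52.7%. The Acaca and Acacb windows lie at the start of Acaca-201 and Acacb-201, and Acaca, Acacb and Cpt1a all have other annotated starts upstream of the start used.

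In every library the order of the levels by FPKM was the same, with Cpt1a highest, then Prkaa2, Acaca and Acacb. For each gene the highest Akk library lay below the lowest PBS library, a gap seen for 65.0% of the table by FPKM and 65.9% by counts scaled to depth. PBS replicate 2 was the highest library for all 4, as for 74.0% of the table. By mean FPKM the levels in Akk were 2.54-fold lower for Prkaa2, 3.29-fold for Acaca, 5.29-fold for Acacb and 4.16-fold for Cpt1a. Without PBS replicate 2 these differences were 1.76-fold, 1.88-fold, 2.80-fold and 2.08-fold. By counts scaled to depth Acaca was 3.09-fold and Acacb 4.35-fold lower, and 1.68-fold and 1.599-fold without PBS replicate 2. Acacb then had the smallest difference of the 4. In bulk RNA, fewer cells of a type and less RNA per cell cannot be told apart.

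Prkaa2 encodes the alpha 2 catalytic subunit of AMPK (ENSMUSG00000028518; chromosome 4, 105029874 to 105109890, minus strand, GRCm38; 1 annotated transcript with 9 exons). Its FPKM was 1.37, 1.25 and 1.25 in Akk replicates 1 to 3 and 2.53, 5.30 and 1.998 in PBS replicates 1 to 3. The Akk libraries lay close together, and the lowest PBS library was 1.46-fold above the highest Akk library. The means were 1.29 ± 0.0683 FPKM in Akk and 3.28 ± 1.78 in PBS (SD, n = 3 each). The counts behind them were 458, 393 and 368 reads in Akk and 751, 1424 and 625 reads in PBS.

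Acaca encodes the cytosolic carboxylase (ENSMUSG00000020532; chromosome 11, 84129672 to 84401651, plus strand; 9 annotated transcripts, 7 of them protein-coding). Its FPKM was 0.794, 0.507 and 0.717 in Akk replicates 1 to 3 and 1.38, 4.11 and 1.14 in PBS replicates 1 to 3. PBS replicates 1 and 3 were near each other and above all Akk libraries, of which replicate 2 was the lowest. The means were 0.672 ± 0.149 in Akk and 2.21 ± 1.65 in PBS (SD, n = 3 each), from 309, 190 and 248 reads in Akk and 413, 1258 and 393 reads in PBS.

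Acacb encodes the mitochondrial-surface carboxylase (ENSMUSG00000042010; chromosome 5, 114146535 to 114250761, plus strand; 5 annotated transcripts, 3 of them protein-coding). It was the lowest of the 4, with an FPKM of 0.111, 0.243 and 0.175 in Akk replicates 1 to 3 and 0.741, 1.81 and 0.246 in PBS replicates 1 to 3. The groups did not overlap, but PBS replicate 3 lay only 1.01-fold above Akk replicate 2. Both of these libraries had 85 reads, with an exact Poisson interval of 67.9 to 105 (95%, counting error only). Read counts were 42, 85 and 57 in Akk and 106, 519 and 85 in PBS, and the means were 0.176 ± 0.0658 FPKM in Akk and 0.933 ± 0.801 in PBS (SD, n = 3 each). A difference between Akk replicate 2 and PBS replicate 3 was not detectable at this depth. By counts scaled to recovered depth, Acacb in Akk was 4.35-fold lower, and 1.599-fold lower without PBS replicate 2.

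Cpt1a encodes the mitochondrial import enzyme (ENSMUSG00000024900; chromosome 19, 3322334 to 3385733, plus strand; 8 annotated transcripts, 4 of them protein-coding). Its FPKM was 8.94, 7.26 and 8.97 in Akk replicates 1 to 3 and 18.1, 69.9 and 16.8 in PBS replicates 1 to 3. PBS replicate 3, the lowest of its group, was 1.87-fold above the highest Akk library, the widest such gap among the 4 genes. The means were 8.39 ± 0.978 in Akk and 34.9 ± 30.3 in PBS (SD, n = 3 each). It had 1614, 1231 and 1426 reads in Akk and 2903, 10122 and 2832 reads in PBS, so counting error is small beside the spread between libraries.

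**Figure D1:**
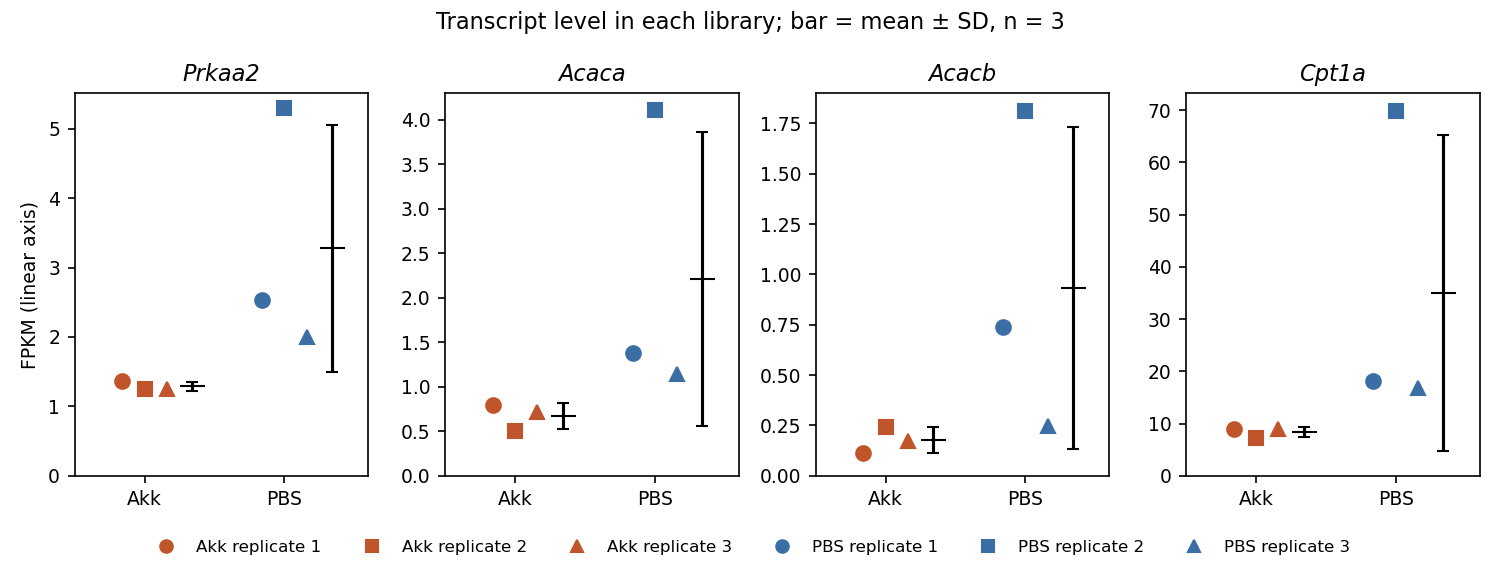
FPKM of each gene (linear axis from 0) in the 3 Akk and 3 PBS libraries, 1 point per library, with the mean and SD (n = 3) at the right of each group. All Akk points lie below all PBS points, by 1.01-fold for Acacb and 1.87-fold for Cpt1a at the nearest points, and PBS replicate 2 is the highest point in each panel.

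Neighbouring genes in the order of levels were not all separate across libraries. Prkaa2 and Acaca overlapped in PBS (1.998 to 5.30 and 1.14 to 4.11 FPKM), although Prkaa2 was above Acaca within each library, by 1.29-fold in PBS replicate 2 and by 1.72-fold to 2.47-fold in the other 5. Acaca and Acacb overlapped in PBS but not in Akk, where Acaca was 2.09-fold to 7.13-fold above Acacb. Cpt1a was above Prkaa2 by 5.80-fold to 7.19-fold in Akk and by 7.16-fold to 13.2-fold in PBS. No exon base of the 4 genes is shared with another gene in the annotation, so reads of an overlapping gene do not enter these counts through annotated exons.

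Counts and FPKM did not carry the same information for the carboxylases. Dividing the count by FPKM and by depth gives the transcript length that the authors' FPKM implies for a library. For Prkaa2 it was 7968 to 7977 bases, where the single annotated transcript has 7969. Prkaa2 was itself among the 52 single-transcript genes that set the absolute depth, so this match was partly built in. For Cpt1a it was 4299 to 4301 bases, near the 4317 of Cpt1a-201. For Acacb it was 8498 to 8981 bases in 5 libraries, near Acacb-202 (8788 bases) and Acacb-201 (8482 bases), but 3840 bases in PBS replicate 1. For Acaca it was 9272 to 9517 bases in Akk and 8021, 9081 and 8765 bases in PBS replicates 1 to 3, where Acaca-202 has 9513 and Acaca-201 has 9026.

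Acacb was thus 1 of 9 genes whose implied length varied more than 2-fold between libraries, out of 1097 genes with at least 40 reads in every library (0.820%). The median ratio of highest to lowest implied length was 1.02, and it was 1.19 for Acaca and 2.34 for Acacb. At the median implied length of the 6 libraries, the Acacb value of PBS replicate 1 would be 0.323 in place of 0.741 FPKM, and the group means 0.178 ± 0.0657 in Akk and 0.772 ± 0.846 in PBS (SD, n = 3 each). Why PBS replicate 1 differs was not tested. The fits below use counts.

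**Figure D2:**
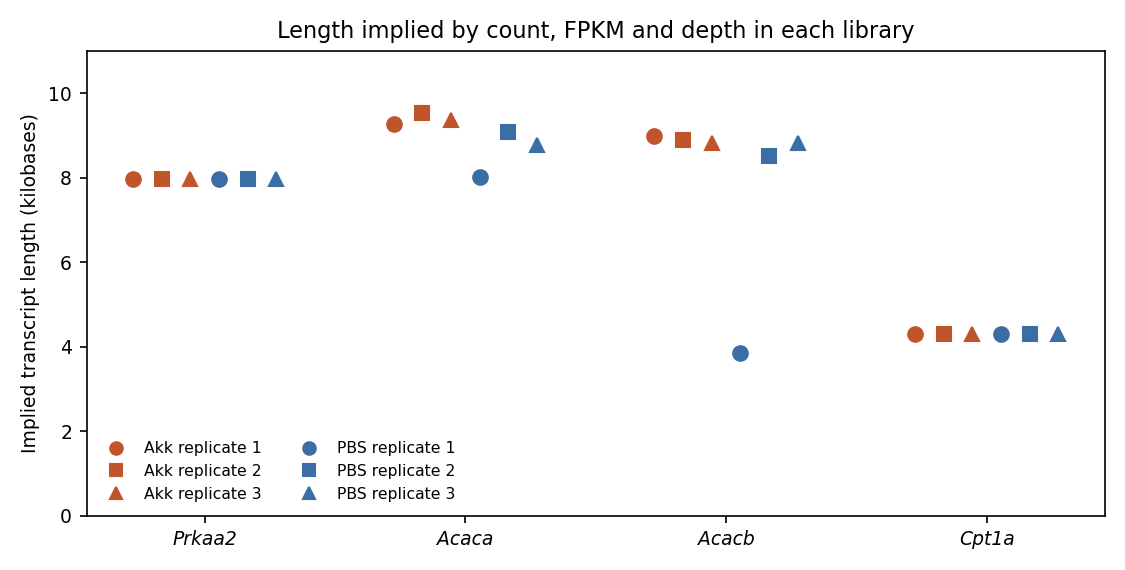
Transcript length in kilobases implied by count, FPKM and recovered depth, for each gene and library (1 point per library, Akk left of PBS within a gene). Points coincide for Prkaa2 and Cpt1a, spread from 8021 to 9517 bases for Acaca, and for Acacb PBS replicate 1 lies at 3840 bases, apart from the other 5 libraries.

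The fit to counts asked whether Akk differed from PBS by more than the spread between libraries. With all 6 libraries the log2 fold change of Akk over PBS was -1.34 (SE 0.61) for Prkaa2, -1.63 (SE 0.74) for Acaca, -2.12 (SE 0.92) for Acacb and -2.06 (SE 0.65) for Cpt1a. None of the 4 passed edgeR's quasi-likelihood test with Benjamini-Hochberg adjustment over the 1386 genes (adjusted p = 0.0894, 0.0894, 0.0868 and 0.0861), and 0% of the table was called lower. At an unadjusted p under 0.05, 2 were lower in Akk, Acacb and Cpt1a, as was 54.3% of the table. DESeq2 called all 4 lower, as it did 63.3% of the 1124 genes for which it gave an adjusted p, and limma-voom called none. With the replicate number as a block, edgeR called none of the 4 and 0.289% of the table lower.

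Leaving out PBS replicate 2 made the differences smaller and the spread narrower. Cpt1a had a log2 fold change of -1.06 (SE 0.19) and passed (edgeR adjusted p = 0.0352), and so did Prkaa2 at -0.81 (SE 0.20; edgeR adjusted p = 0.0435). Acaca, at -0.74 (SE 0.24), and Acacb, at -0.68 (SE 0.38), did not pass (edgeR adjusted p = 0.0603 and 0.151). Thus 2 of the 4 were called lower in Akk, where 17.7% of the table was. Both calls ended with factors from the listed genes on the same 5 libraries, a scaling chosen after seeing the data. Cpt1a was then at -0.45 with RLE and -0.40 with TMM factors (edgeR adjusted p = 0.211 and 0.270), and Prkaa2 at -0.21 and -0.16 (edgeR adjusted p = 0.688 and 0.813), and either scaling called 15 table genes lower. Without PBS replicate 1 the 2 called lower were Acacb and Cpt1a (52.2% of the table called lower), and without PBS replicate 3 again Acacb and Cpt1a (50.9%). Cpt1a was the only one of the 4 called in each of these 3 fits on the recovered depth. The share of the table called in all 3 was not counted, and the fits share libraries. Leaving out any Akk library called none of the 4.

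Most of the table shifted with the choice of scale, and the 4 genes shifted with it. On the recovered depth all 1386 genes had a median log2 difference of -1.85, and relative to it Prkaa2 stood at 0.51, Acaca at 0.22, Acacb at -0.26 and Cpt1a at -0.20. Factors computed from the listed genes moved that median to -0.21 (TMM), -0.15 (RLE) and -0.63 (upper quartile). Under TMM and RLE the log2 fold change of Prkaa2 turned to 0.01 and 0.05, as 153 and 204 of the 1040 genes listed as lower also turned above 0, and those of Acaca (-0.08 and -0.02), Acacb (-0.32 and -0.25) and Cpt1a (-0.45 and -0.39) stayed below 0 without passing the edgeR test. Without PBS replicate 2, on the recovered depth, the median of all genes was -0.66, and Cpt1a lay 0.39 below it, Prkaa2 0.15 below, Acaca 0.08 below and Acacb 0.02 below.

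**Figure D3:**
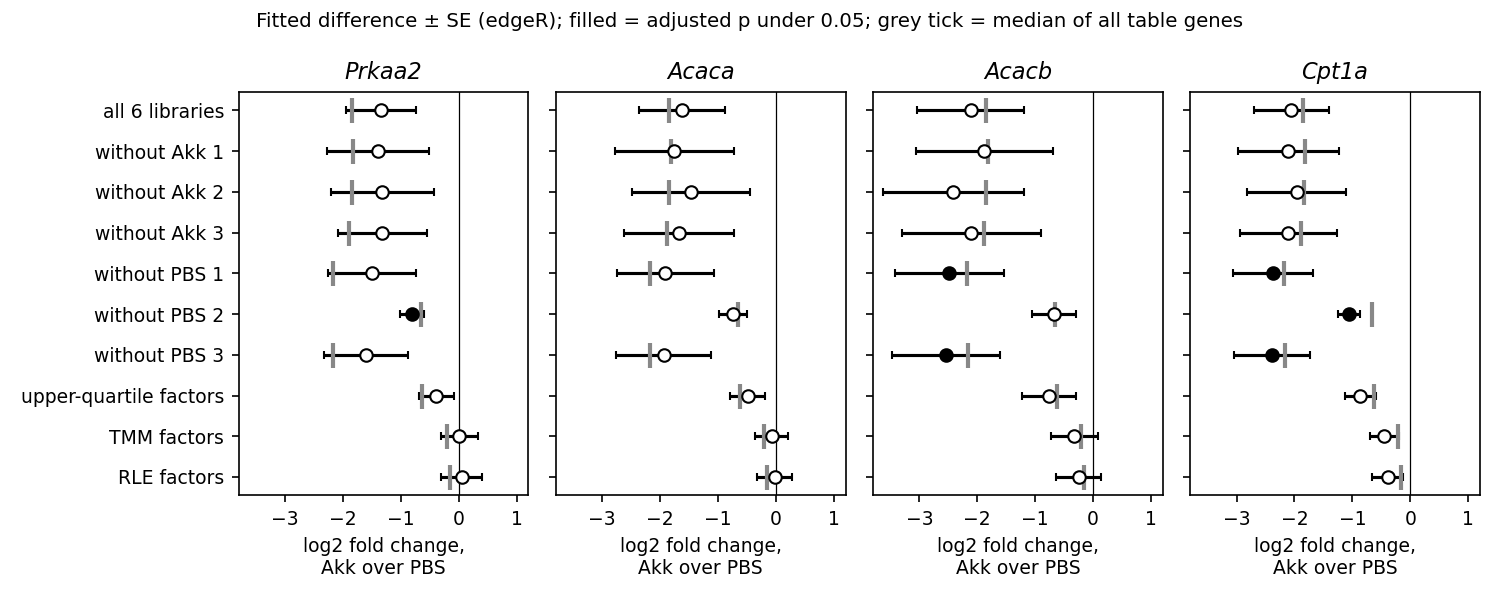
Log2 fold change of Akk over PBS with its SE (edgeR) for each gene, with all 6 libraries, with each library left out, and with scaling factors computed from the listed genes; filled points have an adjusted p under 0.05 and grey ticks mark the median of all 1386 genes. Cpt1a is filled without any single PBS library, Prkaa2 without PBS replicate 2, and Prkaa2 reaches 0.01 and 0.05 with TMM and RLE factors.

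The authors' deposited table gives, for Akk over PBS, log2 fold changes of -1.26 for Cpt1a (p = 0.000863), -1.01 for Acacb (p = 0.0379), -0.92 for Acaca (p = 0.0147) and -0.81 for Prkaa2 (p = 0.00327). The table does not say how they were computed or whether the p-values are adjusted. The log2 ratios of the mean deposited FPKM were -2.06, -2.40, -1.72 and -1.35 for Cpt1a, Acacb, Acaca and Prkaa2, each further from 0 than the value of the authors' deposited table. Without PBS replicate 2 these ratios were -1.06, -1.48, -0.91 and -0.81. The -1.48 of Acacb holds the FPKM of PBS replicate 1, and by counts scaled to depth it was -0.68, nearer to 0 than the -1.01 of the authors' deposited table. By the p-value of the authors' deposited table, Cpt1a ranked 70 of the 1040 genes listed as lower, Prkaa2 200, Acaca 547 and Acacb 912.

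The ratio of 2 genes within a library does not depend on depth or scaling, so it shows whether the 4 moved by unequal amounts. All 6 pairs were compared by an exact two-sided permutation test over the 20 assignments of libraries, whose smallest possible p is 0.10, so no pair could pass 0.05. The log2 ratio of Cpt1a over Prkaa2 was 2.70 ± 0.15 in Akk and 3.21 ± 0.46 in PBS (SD, n = 3 each), a difference of -0.51 (exact p = 0.20; adjusted over 6 pairs, 0.60). The ratio of the carboxylases, Acaca over Acacb, was 1.98 ± 0.89 on the log2 scale in Akk and 1.43 ± 0.69 in PBS (SD, n = 3 each), a difference of 0.54 (exact p = 0.60; adjusted, 0.70). The other 4 differences ranged from -0.23 for Cpt1a over Acaca to 0.83 for Prkaa2 over Acacb, with adjusted exact p of 0.60 to 0.70. The difference for Cpt1a over Acacb was 0.31 by FPKM and -0.12 by counts, so its sign differed between the units. By counts Prkaa2 over Acacb was 0.40 in place of 0.83, and Acaca over Acacb 0.24 in place of 0.54. Leaving out PBS replicate 2 gave -0.26 for Cpt1a over Prkaa2 and 0.42 for Acaca over Acacb. By FPKM every pair overlapped between the groups. By counts Cpt1a over Acaca did not overlap, with a difference of -0.36 in place of -0.23. Its exact permutation p was 0.10, the smallest possible, and was not adjusted over the pairs.

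**Figure D4:**
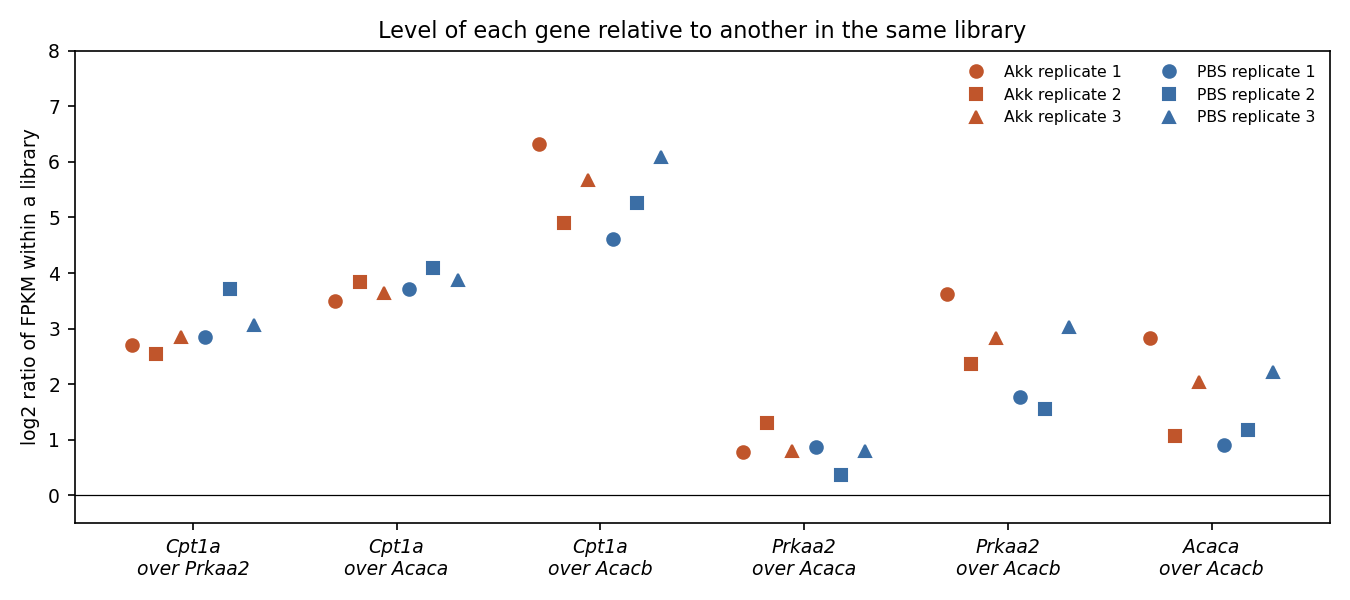
Log2 ratio of FPKM of 1 gene over another in the same library, for the 6 pairs (1 point per library, Akk left of PBS within a pair). Akk and PBS points overlap in every pair, and ratios that hold Acacb spread most.

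The other genes of the pathway were few in the table. Of 111 genes in 9 lists on AMPK, malonyl-CoA, carnitine and fatty acid oxidation, 13 were listed, 10 as lower and 3 as higher in Akk, where 75.0% of the whole table was listed as lower. The 13 include Prkaa2, Acaca, Acacb and Cpt1a, and the lists had been drawn up with earlier results of these data known. Prkaa2 was the 1 of 7 AMPK subunit genes listed, and 0 of 16 upstream kinases and regulators were, among them Stk11 (LKB1) and Camkk2. Genes outside the table either failed the authors' selection or had no measurement, which cannot be told apart here. In the edgeR fit to all 6 libraries none of the 13 passed, where 0% of the table was called. Without PBS replicate 2, 5 of the 13 passed: Prkaa2, Cpt1a, Melk, Acadl and Eci2. All 5 were lower in Akk, where 17.7% of the table was called lower.

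Of 20 genes whose products AMPK phosphorylates, 4 were listed. Besides the carboxylases they were Tbc1d4, a Rab GTPase-activating protein of glucose transporter traffic, and Pfkfb3, which makes the glycolytic activator fructose 2,6-bisphosphate. Tbc1d4 had an FPKM of 0.205, 0.179 and 0.0859 in Akk and 0.294, 1.82 and 0.224 in PBS. Pfkfb3, listed as higher, had 16.8, 16.9 and 10.6 in Akk and 10.04, 3.30 and 9.43 in PBS. Over these 4 the median log2 difference was -1.87, beside -1.85 for all genes, and -0.70 beside -0.66 without PBS replicate 2, when 0 of the 4 passed.

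Among the genes that make, use or remove malonyl-CoA, 3 of 14 were listed, Acaca, Acacb and Fasn. Fasn, the synthase that builds palmitate from malonyl-CoA, had an FPKM of 1.80, 1.47 and 1.93 in Akk and 2.62, 12.3 and 2.31 in PBS. Its groups did not overlap, as for 65.0% of the table, and its log2 fold change was -0.50 without PBS replicate 2 (edgeR adjusted p = 0.0866).

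In the carnitine system 2 of 13 were listed, and they were listed in opposite directions. Cpt1a was lower, while Crot, the peroxisomal carnitine octanoyltransferase, was listed as higher, with an FPKM of 76.6, 62.7 and 34.2 in Akk and 33.2, 26.7 and 43.6 in PBS. The Crot groups overlapped. Crot had a log2 fold change of 0.74 over the 6 libraries (edgeR adjusted p = 0.174), and of 0.59 when PBS replicate 2 was left out (edgeR adjusted p = 0.169).

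Of 16 genes of mitochondrial beta-oxidation, the pathway that Cpt1a feeds, 2 were listed. Acadl, the long-chain acyl-CoA dehydrogenase, had an FPKM of 28.6, 40.4 and 24.2 in Akk and 58.5, 76.0 and 60.8 in PBS. Eci2, an isomerase for unsaturated fatty acids, had 15.3, 11.6 and 13.4 in Akk and 23.4, 38.2 and 22.2 in PBS. Neither gene's groups overlapped, as for 65.0% of the table. Without PBS replicate 2 the log2 fold changes were -0.94 and -0.74 (edgeR adjusted p = 0.0457 and 0.0441), where 17.7% of the table was called lower. With all 6 libraries and TMM or RLE factors both turned above 0, to 0.03 and 0.06 for Acadl and to 0.17 and 0.21 for Eci2, as did 153 (TMM) and 204 (RLE) of the 1040 genes listed as lower.

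Ppara, the fatty acid receptor that activates Cpt1a transcription, was the 1 of 13 transcriptional regulators listed. Its FPKM was 2.41, 1.28 and 2.14 in Akk and 3.84, 7.45 and 3.79 in PBS. The groups did not overlap, again as for 65.0% of the table, and without PBS replicate 2 its log2 fold change was -0.94 (edgeR adjusted p = 0.0586).

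Of 13 AMPK-related kinases 2 were listed. Melk, a kinase of dividing cells, had an FPKM of 0.497, 0.450 and 0.592 in Akk and 1.12, 15.0 and 1.07 in PBS. Its log2 fold change without PBS replicate 2 was -1.09 (edgeR adjusted p = 0.0433). Nuak2, a stress-responsive kinase listed as higher, had 26.2, 27.8 and 25.6 in Akk and 16.4, 13.6 and 26.4 in PBS, and its groups overlapped.

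The genes whose patterns lay nearest to each of the 4 were found by the root mean square difference of log2(FPKM + 0.1), centred on each gene, over the 6 libraries. For Prkaa2 they were Nln, a peptidase (difference 0.07), Mthfd2l, a mitochondrial folate enzyme (0.08), and Gmnn, an inhibitor of replication licensing (0.09). For Cpt1a they were Mpzl2, an adhesion protein (0.07), Gphn, gephyrin (0.10), and Zfp991, a zinc finger gene (0.12). For Acaca they were Gars, a tRNA synthetase (0.10), Asnsd1 (0.11) and Acadsb, a dehydrogenase of branched-chain acyl-CoA (0.14).

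For Acacb the nearest were Mri1, an enzyme of methionine salvage (0.26), and the ribosomal protein genes Rps25 (0.27) and Rpl13a (0.28). Near-identical pseudogene copies can share reads with ribosomal protein genes, and whether they did here was not tested. Every distance from Acacb includes its FPKM in PBS replicate 1, with the short implied length given above. Among the 4, Acaca was nearest to Cpt1a (0.23) and to Prkaa2 (0.23), Prkaa2 and Cpt1a were 0.40 apart, and Acacb was 0.45 to 0.49 from the others. All these patterns share the high value of PBS replicate 2 and the same 6 libraries.

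PBS replicate 2 was 2.34-fold above the mean of PBS replicates 1 and 3 for Prkaa2, 3.26-fold for Acaca, 3.68-fold for Acacb and 4.01-fold for Cpt1a by FPKM. The median of the 1040 genes listed as lower was 5.77-fold. By FPKM all 4 lay below that median, at ranks 936, 816, 757 and 705 from the highest. For Acacb the FPKM ratio includes the FPKM of PBS replicate 1. By counts scaled to depth its PBS replicate 2 was 6.15-fold above the mean of the other PBS libraries. The median and ranks were not computed by counts, so the place of Acacb on that scale is not known.

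Crypt and dividing cell markers were highest in the same library. Paneth cells make antimicrobial peptides at the crypt base. Of 15 Paneth markers 12 were listed, led by Defa24 and Ang4, and their summed FPKM was 173 to 204 in Akk and 222 to 9192 in PBS. Of 18 crypt stem cell markers 9 were listed, Olfm4 at the highest level, with sums of 10.3 to 12.9 in Akk and 19.0 to 669 in PBS. Of 32 dividing cell markers 31 were listed, led by Stmn1 and Hmgb2, with sums of 45.1 to 63.0 in Akk and 87.3 to 1044 in PBS. All of these markers were highest in PBS replicate 2, and none was at 0 in any library. The authors had marked every one of them as lower in Akk. Of the 1040 entries so marked, 1022 peaked in PBS replicate 2, against 74.0% of the whole table. A peak in that library therefore does not by itself set these markers apart.

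Without PBS replicate 2, the mean sums in Akk were 0.791 of those in PBS for Paneth, 0.567 for stem cell and 0.557 for dividing cell markers. In the same comparison by counts scaled to depth, Acacb was 1.599-fold, Acaca 1.68-fold, Prkaa2 1.75-fold and Cpt1a 2.08-fold lower. The Paneth sum covers unequal members: 2 of the 12 had fitted log2 differences above 0 in that comparison, and 0 of 12 passed the edgeR test. In it 4 of 9 stem cell and 11 of 31 dividing cell markers passed, all lower in Akk, where 17.7% of the table was called lower. Of 20 absorptive enterocyte markers 3 were listed (Apoa4, Apob and Apoc3), with sums, mostly of Apoa4, of 4538 to 6180 in Akk and 657 to 3862 in PBS. None of the 3 passed the edgeR test with all 6 libraries or without PBS replicate 2. Of 9 markers in the goblet cell list only 2 were listed, Zg16 and Muc13, with sums of 2094 to 2996 in Akk and 1246 to 2062 in PBS. Neither passed the edgeR test with all 6 libraries or without PBS replicate 2. Of 11 enteroendocrine markers 3 were listed, with sums of 81.5 to 85.0 in Akk and 44.6 to 62.7 in PBS. That sum is mostly Gip and Sst. Gcg, the glucagon gene, averaged 2.60 ± 0.63 FPKM in Akk and 7.22 ± 3.39 in PBS (SD, n = 3 each), and had a log2 fold change of -1.01 without PBS replicate 2 (edgeR adjusted p = 0.0442). None of 6 tuft, 16 immune and 11 stromal markers was in the table, so these cell types were not checked. The part of cell composition in the lower levels of the 4 genes was not tested.

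**Figure D5:**
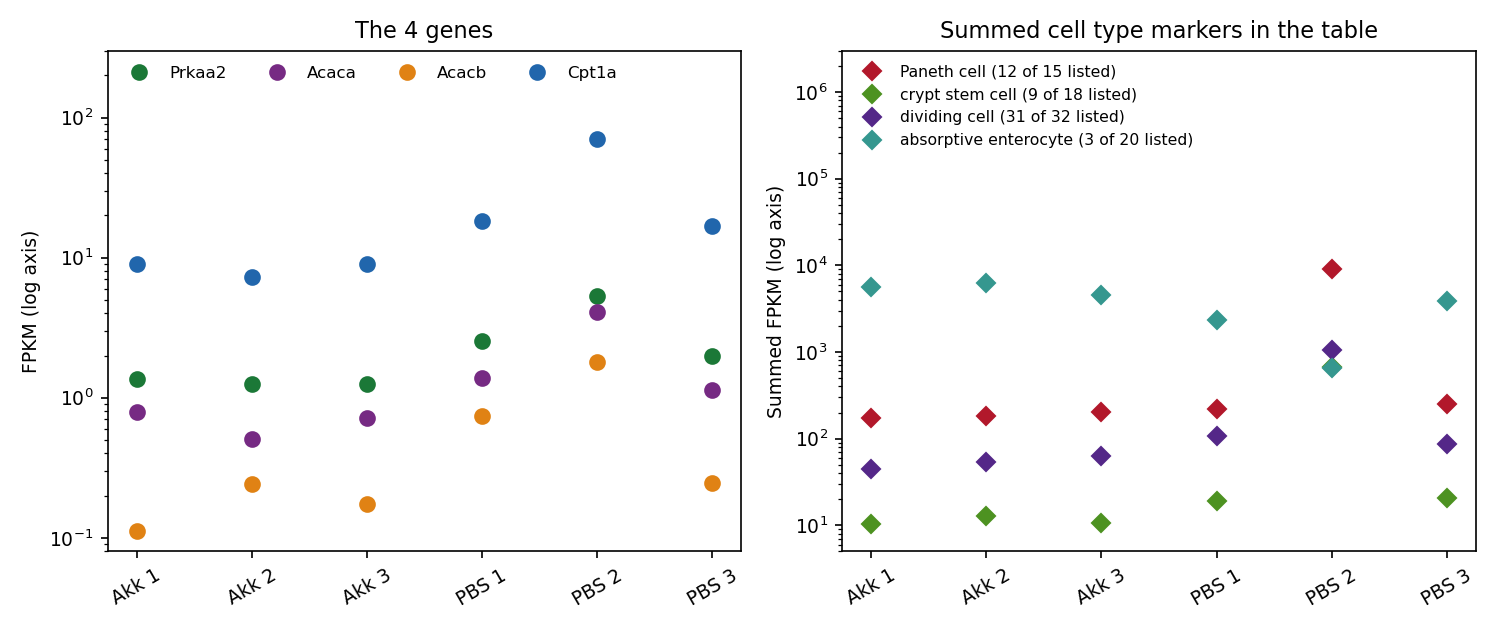
The 4 genes (left) and summed markers of crypt and enterocyte cell types (right) in each library, as FPKM on log axes, with Akk libraries left of PBS libraries. PBS replicate 2 is the highest library for each of the 4 genes and for the Paneth (9192), stem cell (669) and dividing cell (1044) sums, and the lowest for the enterocyte sum (657), whose point there covers that of the stem cell sum.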

How the data were processed

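RNA-seq of intestinal epithelium from 3 Akk and 3 PBS libraries was used, grouped by the titles in the labels. The deposited table holds counts and FPKM per library, and a log2 fold change and p-value per gene from the authors' own comparison, per the file headers. The build was mm10, per the submitters' processing notes; the sources used here do not give the aligner, counter, annotation or the authors' test. Because the table holds only genes the authors selected, its count total is 8.38 to 16.5% of a library and is not its depth. Relative depth was recovered from count over FPKM across 560 genes with at least 200 counts in every library, and its absolute level from 52 single-transcript genes of GENCODE M21. Counts on that depth were tested with edgeR 4.0.16 (quasi-likelihood, Benjamini-Hochberg over 1386 genes, threshold 0.05) in R 4.3.3. Alternatives were TMM, RLE and upper-quartile factors, DESeq2 1.42.0, count filters, a replicate block and leaving out each library. Limma 3.58.1 was also run on counts, on log2(FPKM + 0.1) and on log2(FPKM + 1). The code was tested on simulated data. Of 1386 entries 1322 carry Ensembl identifiers, all found in the annotation; 2 lines were left out as no gene, and 1 name was restored from a date.

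Poisson intervals (95%) cover counting error only. The 4 genes were fixed by name; the other named genes are every listed member of the pathway lists, the 3 nearest patterns per gene and up to 2 leading markers per cell type, the 3 enterocyte markers and Gcg being named after their values were seen. The members and lists were chosen with earlier results of these data known. Equal replicate numbers do not mark a shared animal or batch in the labels.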

Additional observations from a re-analysis of the deposited data

How the results depend on the processing

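The log2 fold change of Akk over PBS stayed below 0 for Acaca, Acacb and Cpt1a under all 18 alternatives run. That of Prkaa2 turned to 0.0057 with TMM and 0.0472 with RLE factors from the listed genes. These factors shifted the whole table, whose median moved from -1.85 to -0.21 and -0.15, and turned 153 and 204 of the 1040 genes listed as lower above 0. With DESeq2 all 4 genes passed, at -1.35 for Prkaa2, -1.63 for Acaca, -2.12 for Acacb and -2.06 for Cpt1a, and 786 table genes passed, against 0 with edgeR. Leaving out 1 library in turn gave -1.60 to -0.81 for Prkaa2, -1.94 to -0.74 for Acaca, -2.54 to -0.68 for Acacb and -2.39 to -1.06 for Cpt1a, with 0 to 2 of the 4 genes and 0 to 734 table genes past the threshold. All calls came from leaving out a PBS library: 734 table genes without replicate 1, 270 without replicate 2 and 732 without replicate 3. Table genes past the threshold numbered 2 with limma-voom, 1 with limma-trend on log2(FPKM + 0.1) and 0 with limma-trend on log2(FPKM + 1). With PBS replicate 2 left out they numbered 177 with RLE and 234 with TMM factors, an alternative chosen after seeing the data, and none of the 4 genes was among them. A replicate block called 6 table genes and none of the 4, at -1.21 for Prkaa2, -1.33 for Acaca, -1.61 for Acacb and -1.69 for Cpt1a. Deviations of equally numbered libraries correlated at 0.225, -0.059 and -0.301, and those of unequally numbered ones at -0.29 to 0.301. With 3 libraries a group, these values cannot show whether equal numbers mark a shared animal or batch. The log2 difference of Cpt1a over Acacb, 0.31 by FPKM, was -0.12 by counts and -0.12 with a pseudocount of 0.1. With 1 library left out it ran from -0.0444 (without PBS replicate 1) to 0.70, and it was -0.0333 without Akk replicate 1. The other 5 ratios kept their sign under their 8 alternatives each. A filter on low counts removed no gene by default, and requiring a CPM of at least 1 in 3 libraries left 1371 genes and the same calls. Depth limits Acacb most, with 42 to 519 reads a library.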
